A study of Mus musculus with 4 samples.

Results

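*Ccl2*, *Ccl7*, *Ccl12*, *Ccl8*, *Ccl6*, *Ccl9* and *Ccr2* are 6 chemokine genes and 1 chemokine receptor gene that were looked up by symbol in the gene list of a single-cell RNA sequencing (scRNA-seq) experiment on mouse melanoma. All 7 were found among the 32285 genes listed. Tumors were grown from a subcutaneous injection of 250000 B16-F10 cells, a C57BL/6 melanoma line, into wild-type C57BL/6 mice. The injected cells were 1 clone that carries the green fluorescent protein ZsGreen (ZsG) under doxycycline (dox) control, and the mice received dox in their drinking water before the tumors were taken on day 8. CD45+ cells, that is leukocytes, were split by flow cytometry at the ZsG gate and sequenced as 1 ZsG-negative and 1 ZsG-positive library, so that ZsG-positive cells here are those bright enough for that gate. By the study's account the gate took bright cells and left most lymphocytes with dimmer ZsG on the negative side, so that the ZsG-negative library is not free of cells that had taken up tumor protein. Both libraries thus came from tumor-bearing, dox-treated mice, how many mice were pooled is not stated in what was read here, and no leukocytes from tumors without ZsG were sequenced. A second experiment sorted tumor T cells into 1 ZsG-positive and 1 ZsG-negative library, because by the study's account the bright gate did not serve for T cells. With 1 library per gate there were no biological replicates: no p-value is given, intervals are 95% intervals for counting error only, and the ZsG gate and the library cannot be told apart.

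Chemokines are small secreted proteins that direct the movement of leukocytes through receptors on their surface. CCR2 is the receptor that lets classical monocytes leave the bone marrow and enter inflamed tissue and tumors, and its mouse ligands are CCL2, CCL7 and CCL12. CCL8 of the mouse acts mainly through CCR8, and CCL6 and CCL9 are known as ligands of CCR1, so that only 3 of the 6 ligands are CCR2 ligands in the strict sense. Once in the tissue, monocytes can become macrophages, which usually lose *Ccr2*. Levels below are CPM, the UMIs (unique molecular identifiers, counted molecules) of a gene in the cells named, scaled to 1000000 UMIs in all. The kit reads the 3' ends of transcripts, and levels of different genes are not compared.

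In the GRCm38 assembly the 6 ligand genes lie on chromosome 11 in 2 groups and *Ccr2* lies on chromosome 9. *Ccl2* (chr11:82035571-82037453) and *Ccl7* (chr11:82045712-82047525) were 8.258 kb apart, and *Ccl12* (chr11:82101845-82103400) and *Ccl8* (chr11:82115185-82116799) were 11.78 kb apart, all on the plus strand. *Ccl9* (chr11:83572919-83578636) and *Ccl6* (chr11:83587882-83593087) were 9.245 kb apart on the minus strand, 1456 kb beyond *Ccl8*. *Ccr2* spans chr9:124101950-124113557 on the plus strand. All 7 are protein-coding genes in the GENCODE vM21 annotation. The longest run of bases that 2 members' transcripts shared was 25, for *Ccl6* and *Ccl9*.

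RefSeq promoter entries (GRCm38.p6) were found for 5 of the 7 members and not for *Ccl2* and *Ccl7*. The 250 bases before the start of the neighbours *Ccl12* and *Ccl8*, whose levels parted in monocytes, and of *Ccl6* and *Ccl9*, whose levels went together across cells, are shown 5' to 3' on the strand of the gene, with matches to 7 short motifs in capitals. The windows are chr11:82101595-82101844 for *Ccl12* and chr11:82114935-82115184 for *Ccl8* on the plus strand, and chr11:83593088-83593337 for *Ccl6* and chr11:83578637-83578886 for *Ccl9* on the minus strand.
Ccl12: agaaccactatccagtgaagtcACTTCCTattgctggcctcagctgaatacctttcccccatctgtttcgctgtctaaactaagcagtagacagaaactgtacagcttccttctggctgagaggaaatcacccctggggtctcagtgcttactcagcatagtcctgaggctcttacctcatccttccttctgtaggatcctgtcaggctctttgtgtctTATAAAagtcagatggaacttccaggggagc
Ccl8: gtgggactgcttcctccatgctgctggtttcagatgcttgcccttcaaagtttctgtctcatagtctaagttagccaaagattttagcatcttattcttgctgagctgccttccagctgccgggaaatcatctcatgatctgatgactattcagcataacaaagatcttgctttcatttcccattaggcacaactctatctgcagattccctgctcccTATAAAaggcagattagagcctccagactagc
Ccl6: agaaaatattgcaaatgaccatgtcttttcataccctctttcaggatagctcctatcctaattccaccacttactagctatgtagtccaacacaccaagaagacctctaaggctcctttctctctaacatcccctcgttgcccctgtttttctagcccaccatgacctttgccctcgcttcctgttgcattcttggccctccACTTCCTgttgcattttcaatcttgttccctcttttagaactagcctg
Ccl9: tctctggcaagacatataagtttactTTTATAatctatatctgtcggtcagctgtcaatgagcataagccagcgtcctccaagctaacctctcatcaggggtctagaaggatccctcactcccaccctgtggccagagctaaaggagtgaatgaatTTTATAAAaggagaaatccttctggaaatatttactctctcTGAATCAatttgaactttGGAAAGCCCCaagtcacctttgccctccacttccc
The motifs, searched on both strands, were the TATA box written TATAAA, the AP-1 motif written TGANTCA, the PU.1 motif written AGGAAGT, the interferon response motif written GAAANNGAA, the C/EBP motif written TTGCNNAA, the GAS motif written TTCNNNGAA, and the NF-kappaB motif. TATAAA stood 31 to 26 bases before the start of *Ccl12* and 32 to 27 bases before that of *Ccl8*, and was found in 12.31% of all 32536 promoters. ACTTCCT, the reverse complement of the PU.1 motif, stood 228 to 222 bases before the start of *Ccl12* and 48 to 42 before that of *Ccl6*, against 7.696% of all promoters. *Ccl9* had 5 matches, among them TGAATCA at 53 to 47 bases (AP-1, 6.728% of promoters) and an NF-kappaB match at 35 to 26 bases (5.025%), and its remaining 3 were TATA matches, of which 1 overlapped another. The *Ccr2* window lies for the most part inside the gene as GENCODE annotates it and is not printed. A match describes these letters only.

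The filters of the study's methods kept 4698 of 5437 ZsG-negative and 4123 of 5168 ZsG-positive barcodes, with median depths of 5769.5 and 9928 UMIs, and 5 kept barcodes occurred in both libraries. Clusters were built with the members left out of the variable genes. They were named from marker genes and from their 10 leading genes, and members were not kept out of the leading genes. The ZsG-negative library held 2532 NK cell/ILC-like and 1497 T cell-like cells, 193 plasmacytoid DC (pDC)-like cells and only 68 classical monocyte-like and 6 macrophage-like cells. The ZsG-positive library held 2052 macrophage-like, 591 classical monocyte-like and 351 DC2-like cells, 117 T cell-like and 25 NK cell/ILC-like cells. Macrophage-like cells formed 4 clusters, M0 (led by *Gbp2b*, *Ch25h* and *Cxcl9*), M2 (*Ms4a7*, *Pf4*, *Trem2*), M3 (*Mmp12*, *Inhba*, *Nos2*) and the cycling M6 (*Anln*, *Pbk*, *Top2a*). A cluster of 368 cells, M5, all ZsG-positive and led by *Clec4n* and *F10*, had 9 of 10 macrophage markers raised. It stayed unnamed, because its leading genes held *Vcan*, a classical monocyte marker, and 0 of the macrophage markers. The members *Ccl6*, *Ccl2* and *Ccl9* were also among its leading genes. Their own levels thus took up places in the list that left M5 unnamed. Both comparisons of classical monocyte-like cells, with macrophages and between the gates, are also given with M5 counted among the monocytes. A second monocyte cluster, M9 (168 ZsG-negative and 29 ZsG-positive cells), had *Ace*, *Treml4* and *Adgre4* of non-classical monocytes but also *Hp*, *Ifitm6* and *Chil3* of classical monocytes among its 10 leading genes. Its summed classical monocyte markers reached 9829 CPM in the ZsG-negative library against 10612 in the classical monocyte-like cells there, and its non-classical markers 2129 against 904, so it is called M9 here and counted as neither kind.

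The ligands were found at low levels in T cell-like cells as well. T cell-like cells, which do not make complement C1q, held *C1qa*, *C1qb* and *C1qc* in the ZsG-positive library at 1.23 to 1.63% of the macrophage level. They held *Ccl2*, *Ccl7*, *Ccl12*, *Ccl6* and *Ccl8* at 1.51 to 2.64% of it, and *Ccl9* at 6.12%. In the ZsG-negative library the same 5 ligands were at 1.11 to 3.77 CPM in T cell-like cells, and *Ccl9* was at 19.7. Whether T cells made these transcripts or held RNA of other cells was not tested, and the levels serve below only as a reference for low values.

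*Ccr2*, the receptor, was highest in monocytes in both libraries. In the ZsG-positive library its level was 1145 CPM (95% interval 1113 to 1178) in classical monocyte-like cells and 1101 (940 to 1283) in M9, and these 2 did not differ beyond their intervals. M5 followed at 737 (711 to 762), macrophage-like cells at 490 (482 to 499) and DC2-like cells at 442 (424 to 461). NK cell/ILC-like cells (300, 236 to 377) and DC1-like cells (293, 259 to 330) could not be ordered, and mature DC-like cells (154, 130 to 182), pDC-like cells (71.8, 26.4 to 156) and T cell-like cells (46.2, 37.2 to 56.7) came last. In the ZsG-negative library the order was similar: 1044 (966 to 1127) in classical monocyte-like cells, 1036 (982 to 1092) in M9, 626 (562 to 696) in DC2-like cells, 502 (491 to 514) in NK cell/ILC-like cells, 399 (330 to 477) in DC1-like cells, 98.8 (84.5 to 115) in pDC-like cells and 54.2 (51.0 to 57.5) in T cell-like cells. *Ccr2* was detected in 98.5% of ZsG-negative and 95.6% of ZsG-positive classical monocyte-like cells. After every cell was thinned to 3000 UMIs these shares were 91.0 and 90.6%, against 65.99% of ZsG-positive macrophage-like cells and 13.95% of ZsG-negative T cell-like cells. The median depths before thinning were 8846.5, 6604, 11031 and 6950 UMIs in that order.

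**Figure D1:**
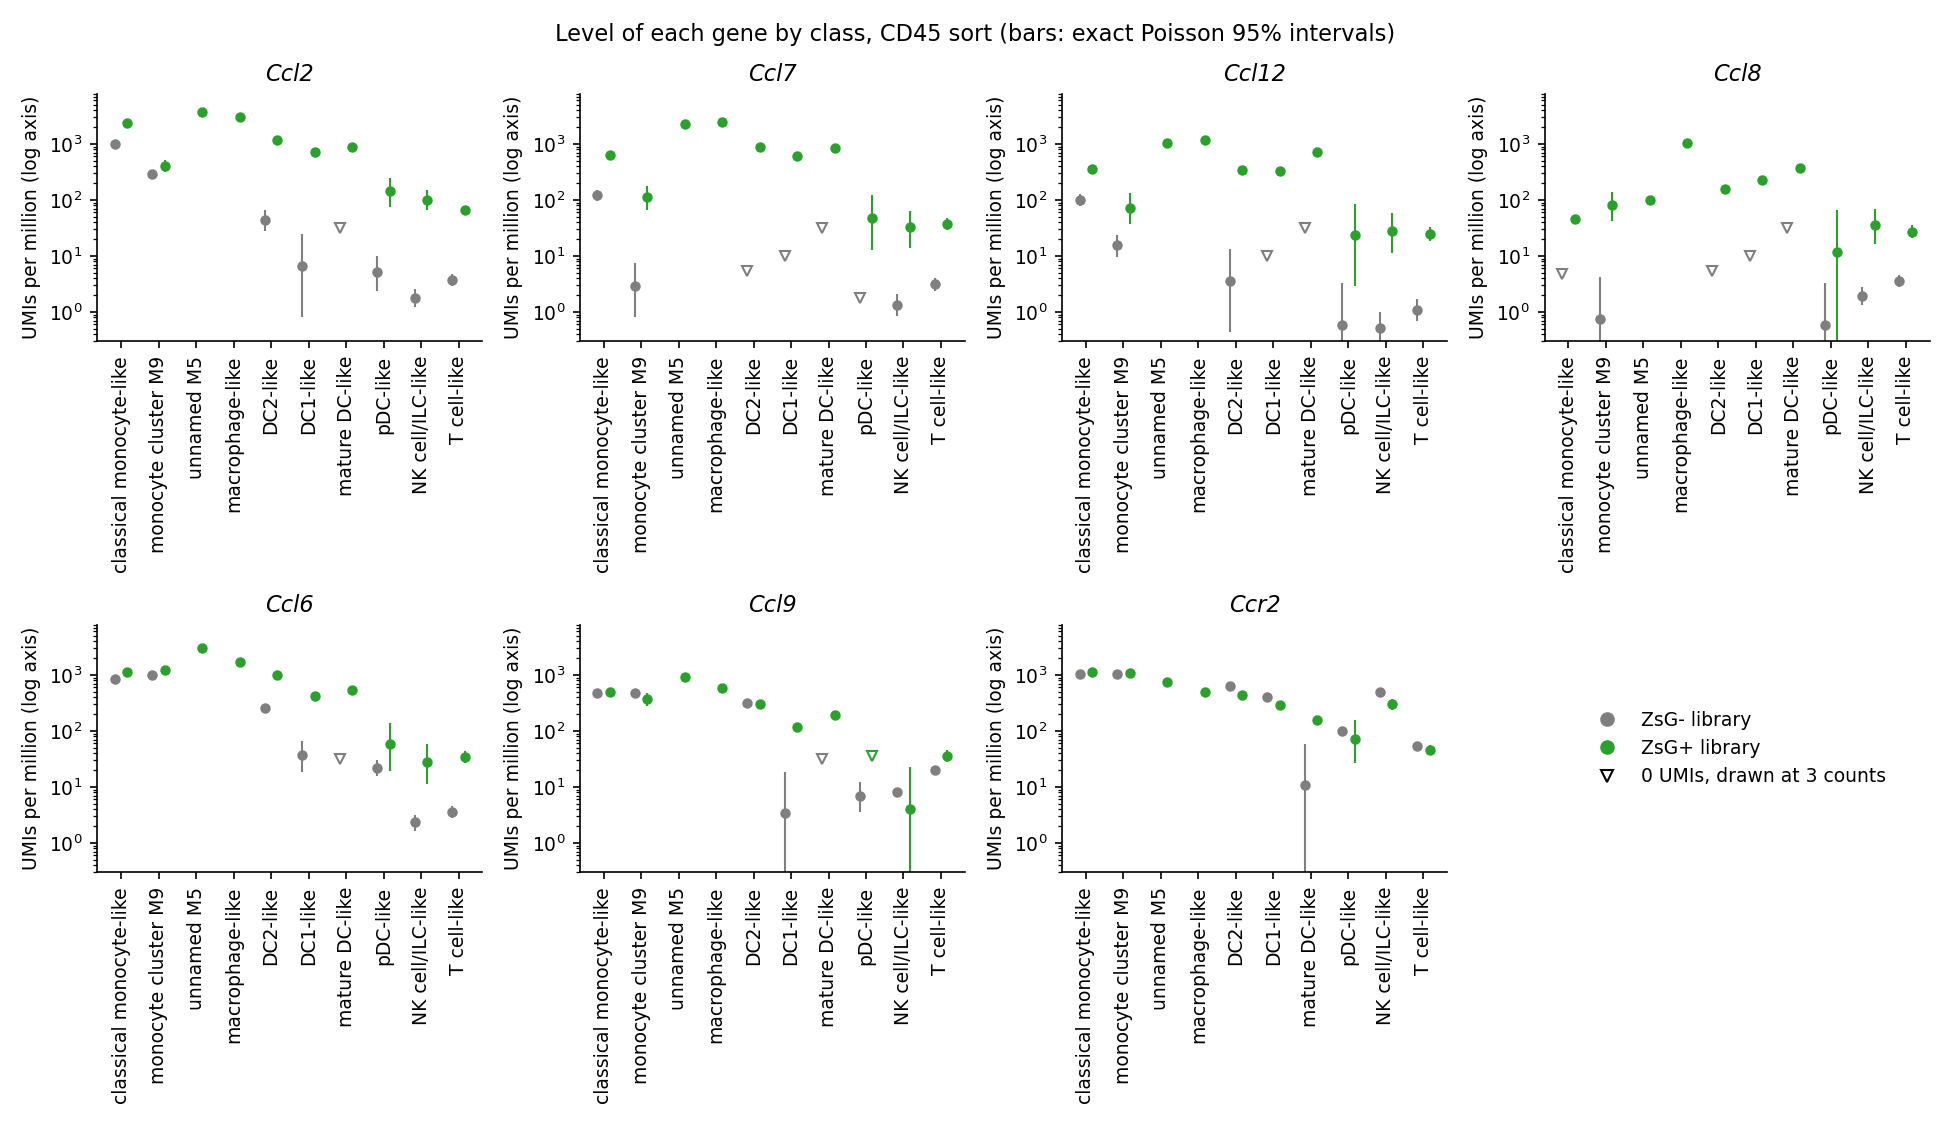
Level of each of the 7 genes by class in the 2 libraries of the CD45 sort, in CPM on a log axis, with exact Poisson 95% intervals and with 0 UMIs drawn as an open triangle at the level of 3 counts. The *Ccr2* points of the 2 libraries lie close together in every class but mature DC-like cells, whereas *Ccl2*, *Ccl7*, *Ccl12*, *Ccl8* and *Ccl6* of ZsG-positive dendritic, NK and T cell-like cells lie far above their ZsG-negative points, and *Ccl9* does so in DC1-like cells but not in DC2-like or NK cell/ILC-like cells.

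The comparison of macrophage-like with classical monocyte-like cells, made within the ZsG-positive library so that both share 1 gate and 1 library, separated the genes. *Ccl8* was at 1038 CPM in macrophage-like cells and at 46.7 in monocytes, a log2 ratio of 4.48 (4.27 to 4.69) or 22.2-fold. The monocyte value lay close to the 27.4 and 36.5 of T and NK cell/ILC-like cells of the same library, so that *Ccl8* in monocytes was hardly above its level in lymphocytes. *Ccl7* was at 2486 against 648, a log2 ratio of 1.94 (1.88 to 2.00), and *Ccl12* at 1192 against 352, a log2 ratio of 1.76 (1.69 to 1.84). *Ccl2*, the best known CCR2 ligand and the direct neighbour of *Ccl7*, was at 3045 against 2418 and differed far less, by 0.33 (0.30 to 0.36). The CCR1 ligands were also close, with *Ccl6* at 1690 against 1153 (0.55, 0.51 to 0.59) and *Ccl9* at 597 against 503 (0.25, 0.18 to 0.31). *Ccr2* went the other way, at 490 against 1145, a log2 ratio of -1.22 (-1.27 to -1.18). Summed, the 3 CCR2 ligands had a log2 ratio of 0.98 (0.95 to 1.00) and the CCR1 ligand pair 0.47 (0.43 to 0.50). *C1qa*, a macrophage marker, had a log2 ratio of 4.35 between the same cells.

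Counted past 2-fold, 3 of the 7 members (*Ccl7*, *Ccl12* and *Ccl8*) were higher in macrophage-like cells, where 18.3% of 11315 genes tested were, and 1 (*Ccr2*) was lower, where 4.65% were. The median log2 ratio was 0.55 over the members and 0.24 over all genes tested. Of 17 companion genes (other CC chemokines and receptors) 11 could be tested: *Ccl17* (1.67) and *Cx3cr1* (1.03) were past 2-fold higher, *Ccr1* (-1.06) was lower, and the median was -0.08. The small differences rested on where M5 was placed, and both placements were added after the data were seen. The classical monocyte markers of M5 summed to 3385 CPM, against 3256 in macrophage-like and 10696 in classical monocyte-like cells. Its macrophage markers summed to 5333 CPM, against 10873 and 2754. With M5 counted as macrophages, the log2 ratio was 0.38 for *Ccl2*, 0.71 for *Ccl6* and 0.35 for *Ccl9*. With M5 counted as monocytes, it was -0.04 for *Ccl2*, -0.33 for *Ccl6* and -0.26 for *Ccl9*. In that case *Ccl7* (0.73), *Ccl12* (0.75) and *Ccl8* (3.80) stayed higher in macrophages and *Ccr2* (-0.93) lower.

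The 4 macrophage clusters differed among themselves; cluster levels are a description, since clusters are drawn from these cells. M2, whose leading genes include *C1qa*, *C1qb* and *C1qc*, led for *Ccl2* (4012 CPM), *Ccl7* (3706), *Ccl12* (1462) and *Ccl8* (2040). Its *Ccl8* level was 2.96-fold that of the other 3 clusters together (log2 1.56, 1.53 to 1.60). Its *Ccr2*, at 408, was below that of the same 3 clusters together, at 518 (log2 -0.34, -0.41 to -0.28). Taken singly, only M0 stood above M2 in *Ccr2*, with means of 2.20 and 1.24 UMIs per thinned cell. M3 and M6 lay below M2, at 0.989 and 0.948. M3, the *Nos2* and *Mmp12* cluster, had a different mix. *Ccl6* was at 2667 against 1533 in the other clusters (0.80, 0.77 to 0.83) and *Ccl9* at 990 against 534 (0.89, 0.84 to 0.94). *Ccl8* was at 364 against 1147 (-1.66, -1.74 to -1.58) and *Ccl12* at 746 against 1263 (-0.76, -0.82 to -0.70). M2 came next after M3 in *Ccl6* and *Ccl9*, with means of 5.94 and 2.34 UMIs per thinned cell against 7.43 and 2.93. M0 had the highest *Ccr2* of the 4, at 717, with *Ccl12* at 1343 and *Ccl8* at 622. The cycling M6 had 978 for *Ccl8* and lay below the monocytes for *Ccl2* (2163), *Ccl6* (1036) and *Ccl9* (378). M0 lay below them as well for *Ccl9* (440), so that the higher macrophage levels of *Ccl2*, *Ccl6* and *Ccl9* did not hold in every cluster, while those of *Ccl7*, *Ccl12* and *Ccl8* did.

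M5 lay between monocytes and macrophages in some genes and above both in others. It had the highest *Ccl6* (3051 CPM), *Ccl2* (3792) and *Ccl9* (915) of all classes in the ZsG-positive library, although M2 alone passed it in *Ccl2* and M3 in *Ccl9*. It had *Ccl7* at 2306 and *Ccr2* at 737, both between monocytes and macrophages. Its *Ccl8*, at 101, was 9.69% of the macrophage level, while its *C1qa*, *C1qb* and *C1qc* were at 45.9 to 54.3% of it. Thinned to 3000 UMIs, *Ccl8* was detected in 7.88% of M5 cells, in 15.8% of classical monocyte-like cells and in 10.4% of T cell-like cells. The median depths of these cells before thinning were 10755, 6604 and 13847 UMIs in that order.

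**Figure D2:**
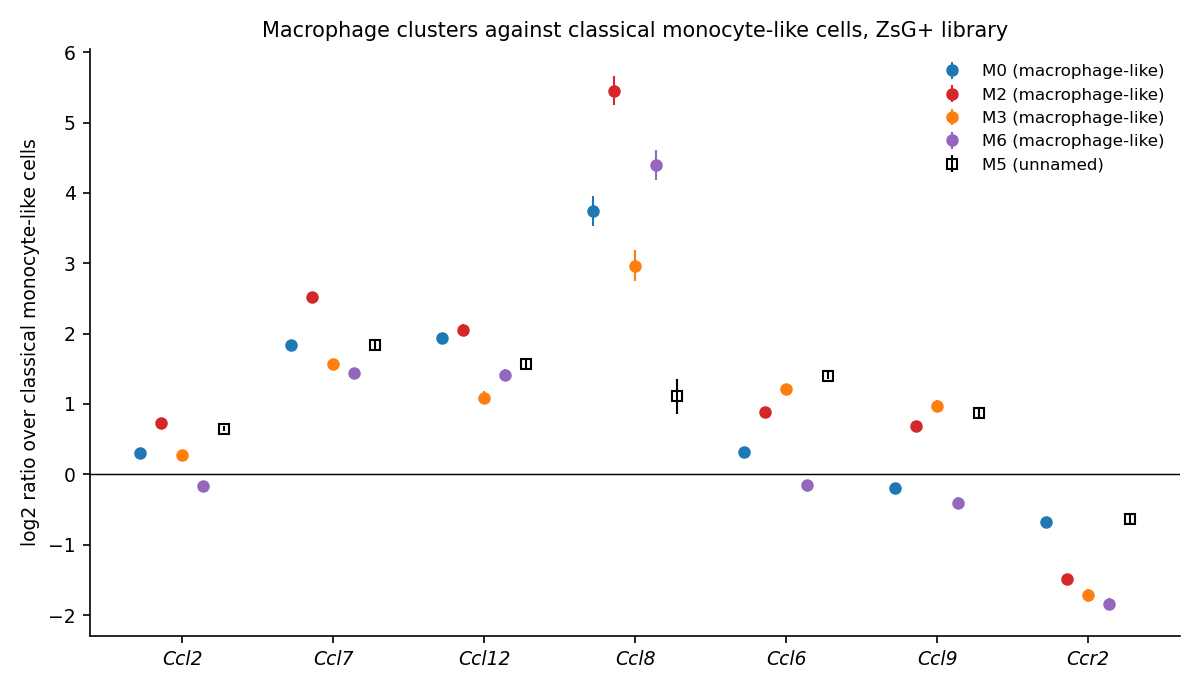
Log2 ratio of each gene in 4 macrophage-like clusters (filled circles) and in unnamed cluster M5 (open squares) over classical monocyte-like cells of the ZsG-positive library, with exact 95% intervals for counting error. *Ccl7*, *Ccl12* and *Ccl8* lie above 0 and *Ccr2* below 0 in every cluster, whereas *Ccl2*, *Ccl6* and *Ccl9* fall on both sides, and M5 has the lowest *Ccl8* and the highest *Ccl6*.

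Macrophage-like cells, 49.8% of the ZsG-positive cells, held most of the ligand UMIs there: 85.0% of *Ccl8*, 71.4% of *Ccl7*, 70.9% of *Ccl12*, 65.0% of *Ccl2*, 62.3% of *Ccl9* and 60.9% of *Ccl6*. They held 50.1% of *Ccr2*, which is about their share of cells, and classical monocyte-like cells, 14.3% of the cells, held 18.0% of it. M5, 8.93% of the cells, held 17.8% of the *Ccl6* UMIs and 1.34% of those of *Ccl8*. Clusters M7 and L9, which mixed markers of myeloid cells and lymphocytes, and unnamed M10 were left out of the orderings above. M7, 4.97% of the cells, held 7.91% of *Ccl7*, 8.94% of *Ccl12* and 8.00% of *Ccl8*. Classical monocyte-like cells held 2.87, 3.23 and 0.589% of these. Of all M7 cells, 33.5% were in the top 5% of doublet scores, which rate barcodes that may hold more than a single cell. The scores came from a run that called 0 of 8821 cells doublets, so whether M7 holds doublets was not settled. In the ZsG-negative library the same genes came from other cells. NK cell/ILC-like cells, 53.9% of that library, held 63.9% of its *Ccr2* UMIs. Classical monocyte-like cells were 1.45% of the cells and held 48.3% of *Ccl2*, and M9 was 3.58% and held 30.1% of *Ccl2*, 54.5% of *Ccl6* and 35.1% of *Ccl9*. The totals were far apart, with 1321 *Ccl2* UMIs in the ZsG-negative and 125578 in the ZsG-positive library, but 12152 against 26234 for *Ccr2*.

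**Figure D3:**
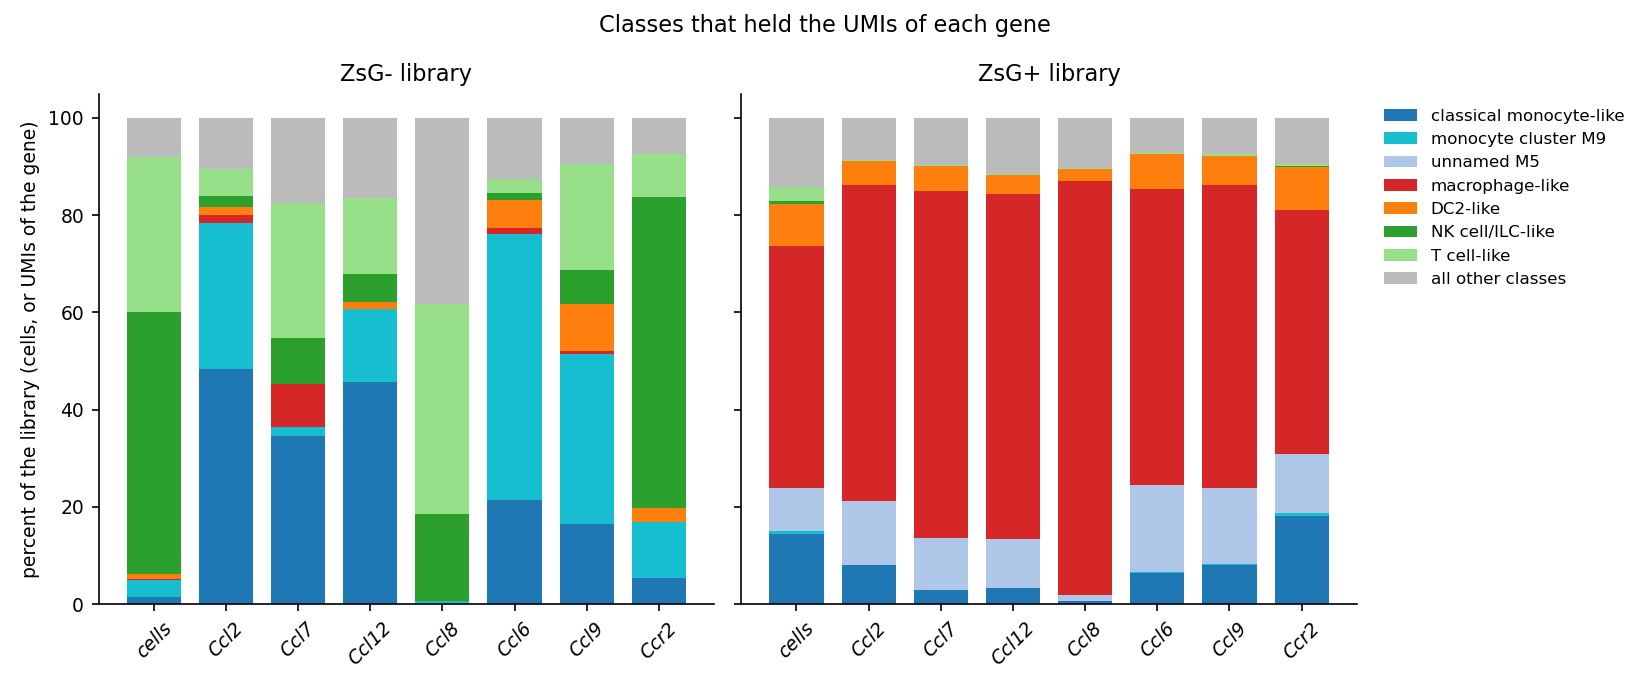
Share of the cells and of the UMIs of each gene held by each class, in percent of the library, for the ZsG-negative (left) and ZsG-positive (right) library. NK cell/ILC-like cells hold 63.9% of ZsG-negative *Ccr2* UMIs, and macrophage-like cells hold between 50.1% (*Ccr2*) and 85.0% (*Ccl8*) of the ZsG-positive UMIs.

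Classical monocyte-like cells were present in both gates and are set side by side. *Ccl2* was at 1014 CPM in 68 ZsG-negative and 2418 in 591 ZsG-positive cells (log2 ratio 1.25, 1.14 to 1.37). *Ccl7* was at 122 against 648 (2.40, 2.08 to 2.75) and *Ccl12* at 102 against 352 (1.79, 1.43 to 2.17). *Ccl8* had 0 UMIs in the 68 ZsG-negative cells. A floor of 3 counts, which is not an exact interval, corresponds to 4.41% of cells with a UMI (3 of 68). With the ZsG-negative sum set to 3 counts, *Ccl8* was at least 9.79-fold higher in ZsG-positive cells. That ZsG-positive level, 46.7, lay near the 27.4 and 36.5 of T and NK cell/ILC-like cells of its library, which were at 3.62 and 1.94 in the ZsG-negative library, and the part of free RNA in this difference was not tested. *Ccl6* (854 against 1153; 0.43, 0.30 to 0.57), *Ccl9* (470 against 503; 0.10, -0.08 to 0.28) and *Ccr2* (1044 against 1145; 0.13, 0.01 to 0.25) differed by less than 2-fold. Thus 4 members, *Ccl8* among them, were past 2-fold higher in ZsG-positive monocytes, where 7.17% of 8076 genes were, and 0 were past 2-fold lower, where 4.51% were. The members' median was 1.25, the value of *Ccl2* itself wherever *Ccl8* is set, against -0.02 over all genes. *C1qa* moved with the ligands, at 12.7 in ZsG-negative and 124 in ZsG-positive monocytes, and *C1qb* was at 130 and 352, while the 10 macrophage markers summed to 2713 and 2754. Their part in the result was not tested. With M5, all of whose cells were ZsG-positive, counted as monocytes, the log2 ratio rose to 1.62 for *Ccl2*, 3.61 for *Ccl7*, 2.80 for *Ccl12*, 1.32 for *Ccl6* and 0.60 for *Ccl9*, *Ccl8* was at least 15.6-fold higher, and *Ccr2* changed sign, to -0.16. Then 5 members, now with *Ccl6*, were past 2-fold higher, where 12.5% of 9286 genes were, and 0 were past 2-fold lower, where 7.85% were. When each cell was classed by its own highest marker score *Ccr2* was at -0.35, *Ccl2* at 2.16 and *Ccl6* at 0.52, and with 10 principal components *Ccl6* was at 0.83.

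Among the companions *Ccr1*, the receptor of CCL6 and CCL9, was present in these monocytes, at 383 CPM in ZsG-negative and 430 in ZsG-positive classical monocyte-like cells and at 206 in macrophage-like cells. *Ccr8*, the receptor of mouse CCL8, had 0 UMIs in all 3 groups and was at 2.41 in ZsG-negative and 5.58 in ZsG-positive T cell-like cells. Of 8 companions tested between the gates in monocytes, *Ccl24*, an eosinophil chemokine, was past 2-fold higher in ZsG-positive cells (138 UMIs against 1) and *Cx3cr1*, the fractalkine receptor, past 2-fold lower (log2 -1.61).

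M9 was below the classical monocyte-like cells in the CCR2 ligands, and in the ZsG-negative library it was near them in the receptor and the CCR1 ligands. In the ZsG-negative library *Ccr2* was at 1036 CPM in M9 and 1044 in classical monocyte-like cells (log2 ratio -0.01, -0.15 to 0.12), *Ccl9* at 470 in both (-0.00, -0.20 to 0.20), and *Ccl6* at 1012 against 854 (0.25, 0.10 to 0.39). *Ccl2* was at 296 against 1014 (-1.78, -1.96 to -1.60), *Ccl7* at 2.97 against 122 (-5.36, -7.28 to -3.95) and *Ccl12* at 15.6 against 102 (-2.70, -3.49 to -1.97). These 3 were the members past 2-fold lower, of 6 tested, where 5.07% of 6688 genes were, and 0 members were higher, where 10.2% were. The members' median was -0.89 against 0.11 over all genes tested, both from fitted values with 0.5 added to each sum. Of 7 companions tested, *Cx3cr1* was past 2-fold higher (263 against 42.9 CPM) and *Ccl4*, *Ccl5* and *Ccr1* were among those past 2-fold lower (log2 -1.96, -2.26 and -1.92). The 29 ZsG-positive M9 cells gave the same order for the CCR2 ligands, with *Ccl2* at 407 against 2418 and *Ccl7* at 113 against 648, and *Ccr2* at 1101 against 1145. *Ccl9*, with 55 UMIs in these 29 cells, was below the 503 CPM of ZsG-positive classical monocyte-like cells.

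In dendritic cells, the professional antigen-presenting cells of the tumor, the gates lay far apart. The 52 ZsG-negative DC2-like cells had *Ccl6* at 256, *Ccl9* at 321 and *Ccr2* at 626 CPM, with *Ccl2* at 43.8, *Ccl12* at 3.65 and 0 UMIs of *Ccl7* and *Ccl8*. The 351 ZsG-positive DC2-like cells had *Ccl2* at 1182, *Ccl7* at 902 and *Ccl12* at 350, whereas *Ccl9* (301) and *Ccr2* (442) were not higher than in ZsG-negative cells. *C1qa*, *C1qb* and *C1qc* had 0 UMIs in the ZsG-negative DC2-like cells and reached 27.8 to 31.6% of the macrophage level in the ZsG-positive ones. Against that scale *Ccl12* (29.4%), *Ccl7* (36.3%) and *Ccl2* (38.8%) lay at or somewhat above the C1q genes, *Ccl8* (14.9%) below them, and *Ccl9* (50.4%), *Ccl6* (60.4%) and *Ccr2* (90.2%) well above.

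DC1-like cells, which cross-present antigen, showed this more evenly. The 24 ZsG-negative cells had 2 UMIs of *Ccl2*, 0 of *Ccl7*, *Ccl12* and *Ccl8*, and *Ccr2* at 399 CPM. In the 62 ZsG-positive cells all 6 ligands lay between 19.7 and 27.5% of the macrophage level, and the C1q genes between 23.2 and 26.8%, while *Ccr2* was at 59.8%. The 10 macrophage markers had 0 UMIs in ZsG-negative DC1-like cells and summed to 2756 CPM in ZsG-positive ones. In 71 ZsG-positive mature DC-like cells the ligands lay at 29.1 to 35.3% of the macrophage level, next to C1q genes at 30.5 to 32.0%, except *Ccl12* at 59.8%. The 12 ZsG-negative mature DC-like cells held 0 UMIs of every ligand. The ligands of ZsG-positive DC1-like cells thus stood in about the ratio to the macrophage level that C1q genes did, and the part of macrophage RNA in them was not tested.

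NK cells and T cells held little of the ligands but differed in the receptor. In the ZsG-negative library *Ccr2* was at 502 CPM in NK cell/ILC-like and 54.2 in T cell-like cells, a log2 ratio of 3.21 (3.12 to 3.31), and in the ZsG-positive library at 300 in 25 and 46.2 in 117 cells, 2.70 (2.24 to 3.16). Lymphocytes with dim ZsG were sorted as negative, so that these 2 libraries do not part T and NK cells with ZsG from those without. Of the members, *Ccr2* was past 2-fold higher in NK cell/ILC-like cells, where 9.77% of 11776 genes were, and 4 ligands were past 2-fold lower, where 10.4% were, but *Ccl2*, *Ccl7* and *Ccl12* were below 4 CPM in both. Of 10 companions tested, 6 were past 2-fold lower in NK cell/ILC-like cells. Among NK cell/ILC-like clusters *Ccr2* ranged from 332 (308 to 357) in L6, led by *Xcl1*, to 676 (648 to 705) in L0, led by *Ret* and *Klra4*. T cell-like clusters spread more, from 24.7 (21.6 to 28.0) in the cycling L5 and 28.7 (23.3 to 34.9) in L2 (*Klra6*, *Nsg2*), over 152 (138 to 167) in L3 (*Cd8b1*, *Ctla4*), to 824 (667 to 1006) in the 22 cells of L13, led by *Cd163l1*, *Tcrg-C1* and *Il17a*, genes of interleukin-17-producing gamma-delta T cells.

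T cell-like cells that carried UMIs of *Foxp3*, the factor of regulatory T cells, without *Cd8a* or *Cd8b1* had more *Ccr2* than *Cd8* cells. In the ZsG-negative library the level was 165 (137 to 196) in 45 *Foxp3* cells against 39.3 (36.2 to 42.6) in 891 *Cd8* cells without *Cd4*, and *Ccr2* was detected in 64.4 and 24.7% of them at median depths of 12691 and 11611 UMIs. The 16 ZsG-positive *Foxp3* cells had 137 (94.3 to 192) against 22.1 (15.3 to 30.9) in 83 *Cd8* cells. The T cell sort gave this order again in both of its libraries. Its descriptions and its file naming contradict each other on which library is ZsG-positive, so the libraries are called by their barcode suffix, 1 or 2. *Foxp3* cells were at 327 (293 to 364) in library 1 and 443 (369 to 528) in library 2, and *Cd8* cells at 97.7 and 96.6. *Cd4* cells without *Foxp3* or *Cd8* also lay above *Cd8* cells. They were at 104 (76.3 to 138) in 50 ZsG-negative cells, 260 (187 to 351) in library 1 and 147 (109 to 193) in library 2. Their interval overlapped that of *Foxp3* cells in the ZsG-negative library and in library 1, but not in library 2. By cluster, *Ccr2* reached 544 and 802 in the *Foxp3*-led L5 and 444 and 550 in the NK cell/ILC-like L7. It was at 3.5 and 2.7 in L4, led by *Dapl1*, *Lef1* and *Tcf7*, which naive T cells use. The L4 levels, in 47 and 109 cells, rest on few UMIs.

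**Figure D4:**
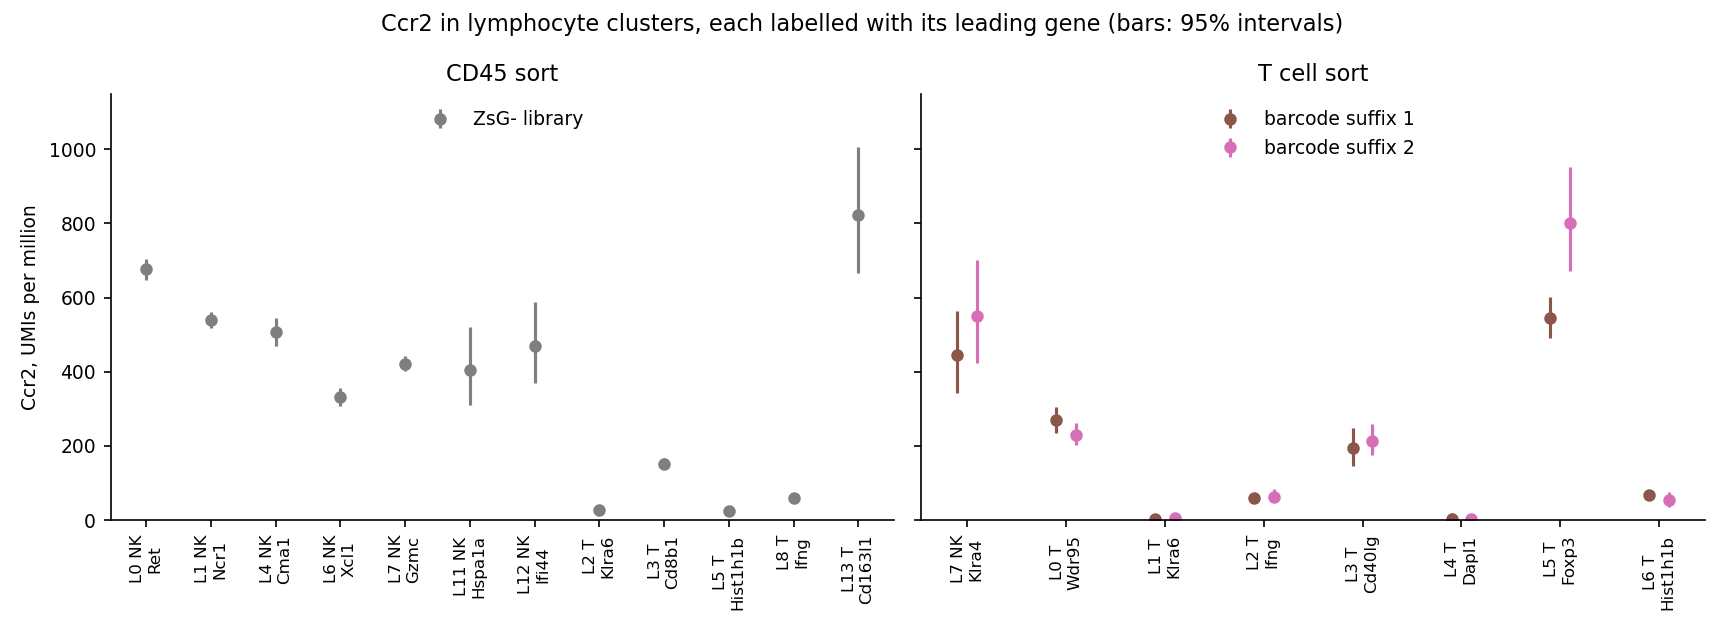
Level of *Ccr2* in CPM, with exact Poisson 95% intervals, in each NK and T cell-like cluster (with its leading gene) of the ZsG-negative library of the CD45 sort (left) and of both libraries of the T cell sort (right). NK cell/ILC-like clusters lie between 332 and 676 in the ZsG-negative library, and among T cell-like clusters the *Cd163l1*-led L13 and the *Foxp3*-led L5 of the T cell sort stand highest.

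*Ccl9* differed between lymphocyte clusters of the ZsG-negative library. In ZsG-negative clusters L5 (cycling T cell-like), L6 (*Xcl1*-led NK cell/ILC-like) and L8 (T cell-like, led by *Ifng*, *Cd8a* and *Pdcd1*) it was at 30.9, 45.4 and 18.2 CPM, together 29.7, against 2.36 over the other T and NK cell-like clusters. These 3 were chosen for their *Ccl9* after the values were seen, so that a wide gap in *Ccl9* was built in. In the same 2 sets of cells *Ccl2* was at 2.90 and 2.92, *Ccl7* at 2.15 and 2.51 and *Ccl6* at 2.72 and 3.33. There *Ccl12* was at 0.695 and 0.974 and *Ccl8* at 3.60 and 2.31. The contrast of these ligands with *Ccl9* is therefore a description only. *Ccr2* was at 76.5 and 391. In *Cd8* cells of the ZsG-negative library *Ccl9* was detected in 7.63% at 24.1 CPM, and *Ccl2* in 4.15% of the same cells at 3.60. In the T cell sort, cluster L2, also led by *Ifng* and *Xcl1*, had *Ccl9* at 29.3 in library 1 and 3.6 in library 2. The level in library 2, in 66 cells, rests on few UMIs. Over all *Cd8* cells of library 1, with no cluster left out, *Ccl9* was at 22.1, *Ccl2* at 23.4 and *Ccl6* at 31.6. Those of library 2 had *Ccl9* at 3.00 and *Ccl2* at 9.90. ZsG-positive *Cd8* cells of the CD45 sort had *Ccl9* at 41.0 and *Ccl2* at 63.7. As a share of the macrophage level, ZsG-positive T cell-like cells had *Ccl9* at 6.12% and *Ccl2* at 2.15%.

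Single macrophage-like cells differed in how the genes were spread. After 2017 ZsG-positive cells were thinned to 3000 UMIs, the 202 cells with the most UMIs of a gene held 82.7% of the UMIs of *Ccl8*, against 47.8% for *Ccl12*, 43.6% for *Ccl9*, 39.7% for *Ccl7*, 39.6% for *Ccl6*, 34.8% for *Ccl2* and 33.1% for *Ccr2*. *Ccl8* was detected in 30.9% of cells, with a median of 0 and a maximum of 95 UMIs, and its variance was 27.6 times its mean. *Ccr2*, with a maximum of 12, had a variance of 1.76 times its mean. In M2, the cluster with the most *Ccl8*, it was detected in 46.8% of cells and its top 50 of 494 cells held 65.5% of the UMIs. Of the macrophage-like cells, 12.3% had UMIs of all 6 ligands and 1.59% of none, and of 588 classical monocyte-like cells 2.55% had all 6.

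Across the same macrophage-like cells, genes that lie next to each other on chromosome 11 tended to go together, with an exception. Spearman's rho was 0.70 for *Ccl2* and *Ccl7* and 0.53 for *Ccl6* and *Ccl9*. *Ccl12* had 0.47 with *Ccl2* and 0.48 with *Ccl7*, but only 0.16 with *Ccl8*, its nearest neighbour. *Ccl8* lay between -0.05 and 0.16 with the other ligands and at -0.14 with *Ccr2*. Between the 2 gene groups rho was 0.11 to 0.27 for *Ccl2*, *Ccl7* and *Ccl12* with *Ccl6* and *Ccl9*, and *Ccr2* was within -0.03 and 0.04 of every ligand other than *Ccl8*. Within M2 alone the values were 0.67 for *Ccl2* and *Ccl7*, 0.57 for *Ccl6* and *Ccl9* and 0.15 for *Ccl12* and *Ccl8*, and within classical monocyte-like cells 0.37, 0.37 and 0.05. Within M6 *Ccl8* was less apart, at 0.28 with *Ccl2*, 0.27 with *Ccl7* and 0.23 with *Ccl12*. In M0, M2 and M3 the same pairs lay between -0.09 and 0.15. These are descriptions across cells of 1 library, which share free RNA, and weak values in sparse counts are not read.

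**Figure D5:**
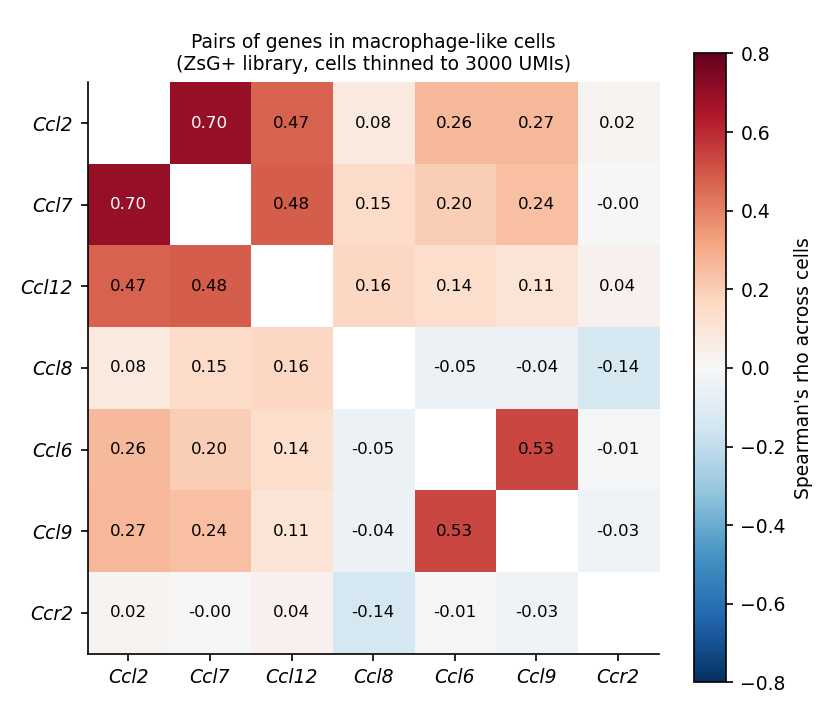
Spearman's rho for each pair of the 7 genes across 2017 macrophage-like cells of the ZsG-positive library, each thinned to 3000 UMIs. *Ccl2* and *Ccl7* (0.70) and *Ccl6* and *Ccl9* (0.53) are the strongest pairs, while the *Ccl8* row is near 0 throughout.

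Macrophage-like and classical monocyte-like cells were also found in the T cell sort, where they are cells that passed a gate not meant for them. In library 1 (176 macrophage-like and 76 monocyte-like cells) the log2 ratio of macrophages over monocytes was 1.45 (1.38 to 1.52) for *Ccl2*, 2.34 (2.22 to 2.46) for *Ccl7*, 1.52 (1.37 to 1.68) for *Ccl12*, 2.11 (1.94 to 2.29) for *Ccl8* and -0.89 (-1.02 to -0.75) for *Ccr2*. In library 2 (54 and 26 cells) it was 0.91 (0.81 to 1.01) for *Ccl2*, 2.03 (1.85 to 2.22) for *Ccl7*, 3.21 (2.78 to 3.69) for *Ccl12* and -1.28 (-1.50 to -1.06) for *Ccr2*. *Ccl8* had 0 UMIs in the 26 monocyte-like cells of library 2 and 691 CPM in its macrophage-like cells, at least 63.9-fold higher with 3 counts in the monocytes. The directions of *Ccl2*, *Ccl7*, *Ccl12*, *Ccl8* and *Ccr2* were those of the CD45 sort in both libraries, and *Ccl6* (1.56 and 0.77) and *Ccl9* (1.23 and 0.57) were higher in macrophages as well.

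Across 15 class-by-library sums with at least 50 cells, the genes most like each member in log2(CPM + 1), among 4951 genes, differed by ligand. *Ccl7* lay closest to the complement genes *C1qb* (Pearson's r = 0.993) and *C1qc* (0.986), with *C3ar1*, *Ccl12* and *C1qa* next. *Ccl12* lay closest to *C3ar1* (0.986), a complement receptor gene, and *Ccl7* (0.975). *Ccl2* lay closest to *Cfb* (0.987), complement factor B, and *Lpl* (0.984), lipoprotein lipase, followed by *Myof*, *Tbxas1* and *Il1rn*. *Ccl8* lay closest to *Pf4* (0.976), *Arg1* (0.966), the arginase gene, and *Stab1* (0.961), a scavenger receptor, with *C1qa* and *C1qc* after them. *Ccl6* lay closest to *Tgfbi* (0.993), *Clec4a2* (0.989) and *Ier3* (0.987), and *Ccl9* to *Mcub* (0.979), *Cdkn1a* (0.979) and *Egr2* (0.967). *Ccr2* had looser partners, *Irak2* (0.939), *AB124611* (0.933), *Btg2* (0.932), *Runx1* and *Anxa1*. The macrophage markers *C1qa*, *C1qb*, *C1qc* and *Arg1* had helped to name the classes that form these sums. The 15 sums also share 2 libraries and their free RNA, so these values only describe likeness of pattern.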

How the data were processed

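Single cells of mouse B16-F10 tumors were profiled with a 10x Chromium 3' kit in a CD45 sort and a T cell sort of 2 libraries each. Per the labels and the file headers, the authors aligned reads to mm10 with Cell Ranger (6.1.2; 7.0.0 in the header of the CD45 matrix), counted UMIs per gene and barcode and combined the libraries with its aggr step; the deposited values are UMI counts, not normalized. Whether aggr evened out depth was not given in the sources used here. Barcodes were given to libraries by their suffix.

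Cells of the CD45 sort with 1000 to 5999 genes and under 10% mitochondrial UMIs were kept, and cells of the T cell sort with 50 to 5999 genes and under 15%. Cells were clustered in 2 rounds in Seurat 5.3.0 (R 4.3.3) with 2000 variable genes, 20 principal components and a resolution of 0.8, with the members and companions left out of the variable genes. A cluster was named where at least 50% and at least 3 of a class's markers were raised. It stayed unnamed if another class had more markers among its 10 leading genes, as for M5. Leading genes were ranked over all genes, members included. Near ties went to a class whose markers were highest in that cluster, or else the cluster stayed unnamed. Clusters with at least 50% of the markers of a class of the other lineage raised were called mixed. This naming rule was set after clusters had been seen. The members and gene lists were chosen with earlier results of these data known. Scrublet (scanpy 1.11.5) called 0 of 8821 cells doublets and so had not worked, and no doublets were removed. Leaving out the top 5% of its scores was an alternative, which rests on those scores and does not settle the effect of doublets.

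UMIs were summed per class and library (scipy 1.17.1 and numpy 2.4.6 in Python 3.11.15). Intervals are exact Poisson for levels, exact Clopper-Pearson for shares and exact conditional for ratios, at 95%, and cover counting error only. Depth per library ranged from 47537541 to 56510578 UMIs in the CD45 sort. Shares were also computed with each cell thinned to 3000 UMIs. With 1 library per condition no test between conditions was made; a gene was counted as higher or lower when it had at least 20 UMIs over both groups and changed at least 2-fold with 0.5 added to each sum. The genes named were the 7 members, the companions among 17 that a result turned on (1 companion is not reported here), and for each member the 5 genes with the highest correlation. The comparison scripts were tested on simulated data.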

Additional observations from a re-analysis of the deposited data

Results flagged for a closer look

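The members also appeared in data that no comparison above used, the barcodes that the gene and mitochondrial filters removed. In the CD45 sort these came to 739 ZsG-negative and 1045 ZsG-positive barcodes, and each member stood higher in the ZsG-positive ones. *Ccl2* was at 1726 CPM there against 5.34 in the ZsG-negative ones, *Ccl7* at 1334 against 2.84, and *Ccl12* at 643.2 against 1.17. *Ccl8* was at 971.8 against 3.51, *Ccl6* at 938.6 against 16.9, and *Ccl9* at 324.3 against 34.2. *Ccr2* was at 296.5 against 79.2. The share of all genes that stood higher in the ZsG-positive removed barcodes was not computed. The 2 libraries differ in make-up. Among kept cells, macrophage-like cells were 49.8% of the ZsG-positive and 0.128% of the ZsG-negative library. The cells behind the removed barcodes were not classed, and the part of make-up in these differences was not tested.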

How the results depend on the processing

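With 1 library per condition no replicate could be left out and no p-value was computed. No paired analysis was possible because each group had 1 library and no comparison came from a test across samples. Of 159 log2 ratios recomputed under other settings, 91 stayed within the counting interval of the reported value, 62 moved further and 6 changed sign, and of 4 recounts of genes past 2-fold, 2 stayed within 1.5 times the reported number. Among the 91 are the gate comparisons in monocytes with M5 as macrophages. These could not move, since that setting leaves their cells unchanged. The summed *Ccl2*, *Ccl7* and *Ccl12* ratio of macrophages over monocytes (0.98) was 1.12 with 10 principal components, 1.09 at a lower cluster resolution, 0.76 with each cell classed by its marker score, 0.34 with M5 as monocytes and 1.10 without the cycling M6. The summed *Ccl6* and *Ccl9* ratio (0.47) was 0.72, 0.76, 0.26, -0.31 and 0.63 in the same order, 0.55 with cells thinned to 3000 UMIs, 0.56 as a mean over cells and 0.61 with M5 as macrophages. The *Ccr2* ratio (-1.22) was -1.11, -0.99, -0.99, -0.93 and -1.07 in that order, -1.16 thinned, -1.14 as a mean over cells and -1.13 with M5 as macrophages. For *Ccl8* (4.48) it was 4.25 with 10 principal components and at the lower resolution, 3.91 thinned, 4.07 as a mean over cells, 4.19 by marker score and 3.80 with M5 as monocytes. With M5 as monocytes *Ccl2* (-0.036), *Ccl6* (-0.33) and *Ccl9* (-0.26) changed sign. *Ccr2* in ZsG-positive over ZsG-negative monocytes (0.13) was 0.014 thinned, -0.35 by marker score and -0.16 with M5 as monocytes. The M5 and M6 alternatives, and those of single ligands between the gates, were chosen after seeing the data, and the cause of these moves was not tested. The number of genes past 2-fold between macrophages and monocytes (2598, of which 79.8% were higher) was 1633 with a minimum of 100 UMIs and 5542 with none, of which 48.4% were higher.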
